A study of Homo sapiens with 7 samples.

Results

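The regions described here are stretches of DNA that carried a called peak of 5-hydroxymethylcytosine (5hmC) in every control library of SH-SY5Y cells and in no library of the same line with a stable knockdown of TDP-43. Peaks of the 6 lists on chromosomes 1 to 22 and X were merged where they overlapped or adjoined, and a merged region was taken as control-only when 3 of 3 control lists and 0 of 3 knockdown lists had a peak in it. This held for 3951 of 200818 merged regions, or 1.97%. Because the peak calls of both groups chose them, their presence in one group and absence from the other is no finding, and no difference between the groups at these regions was tested. A region without a called peak is not a region without 5hmC.

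SH-SY5Y is a human neuroblastoma line of sympathetic, noradrenergic origin. The control cells carried a short hairpin RNA labelled shNC and the knockdown cells one against TDP-43, both delivered in a lentiviral vector, and the stable knockdown cells were selected and kept under puromycin. Each group had 3 libraries of biotin-tagged 5hmC fragments made by hMe-Seal, and no input library entered the comparison. The labels do not say whether the replicates of a group were separate cultures, or whether a line came from 1 clone.

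5hmC is made when TET enzymes oxidise 5-methylcytosine, mostly at CG dinucleotides. It is abundant in neurons, where it lies in gene bodies and enhancers, and it tends to be low at the centre of active promoters and higher on their flanks. TDP-43, the product of TARDBP, binds RNA and DNA and is best known for its loss from the nucleus in amyotrophic lateral sclerosis and frontotemporal dementia. Peak lists hold no expression, so they check neither the knockdown nor the identity of the cells by RNA. Of 9 noradrenergic markers, 5 carried a region with a peak in all 6 libraries and none carried a control-only region. Of 9 mesenchymal markers 6 carried such a shared region, of 8 glial and Schwann cell markers 5, of 7 embryonic kidney markers 2 and of 6 lymphocyte markers 1, so markers of other cells carried shared regions too. Control-only regions lay in 2 of the 6 glial and Schwann cell markers with any region and in 1 of the 2 such lymphocyte markers. None lay in the 7 mesenchymal or 3 embryonic kidney markers with any region. Over all protein-coding genes with any region, 1748 of 12958 (13.5%) overlapped a control-only one. With so few markers these counts point to no cell type, and they were not tested.

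Sequence can be shown for the few control-only regions that hold the annotated start of a protein-coding gene. Starts were read from the RefSeq promoter table of GRCh38.p14, which gives the 250 bases before and 50 after each start. Among the control-only regions 31 overlapped a start. The 5 of these with the strongest peaks are printed, ranked by the lowest of their 3 within-list percentiles of −log10 p. In each the control-only region covered all 300 bases. They are shown because they are start windows whose called 5hmC was confined to the control lists, and capitals mark CG dinucleotides, the usual site of 5hmC. An annotated start need not be the outer end of its gene. ADGRG1 spans from 57619738 with the start used here at 57628630, and CTDSP1 from 218396351 with its start at 218398233. CCDC78, on the minus strand, spans up to 726880 and has its start at 726443. These 3 windows thus lie inside the gene as annotated.
ADGRG1 promoter, chr16:57628380-57628679, plus strand: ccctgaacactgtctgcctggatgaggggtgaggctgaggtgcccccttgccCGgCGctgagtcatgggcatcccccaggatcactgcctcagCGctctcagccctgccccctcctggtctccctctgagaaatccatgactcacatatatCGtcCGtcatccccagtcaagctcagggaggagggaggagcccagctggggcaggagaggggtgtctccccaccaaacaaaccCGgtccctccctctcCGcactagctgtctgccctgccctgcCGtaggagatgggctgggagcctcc
LAMB3 promoter, chr1:209651325-209651624, minus strand: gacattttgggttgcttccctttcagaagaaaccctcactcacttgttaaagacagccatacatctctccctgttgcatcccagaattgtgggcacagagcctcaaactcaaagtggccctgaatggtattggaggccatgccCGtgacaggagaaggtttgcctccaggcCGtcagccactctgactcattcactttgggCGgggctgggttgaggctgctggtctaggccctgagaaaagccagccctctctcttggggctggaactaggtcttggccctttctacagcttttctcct
LPAR1 promoter, chr9:111036731-111037030, minus strand: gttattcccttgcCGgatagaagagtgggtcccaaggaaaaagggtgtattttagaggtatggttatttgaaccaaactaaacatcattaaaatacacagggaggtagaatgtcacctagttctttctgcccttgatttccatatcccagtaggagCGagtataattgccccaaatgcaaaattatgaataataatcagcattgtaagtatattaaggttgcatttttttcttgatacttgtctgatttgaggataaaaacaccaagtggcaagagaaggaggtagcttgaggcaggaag
CCDC78 promoter, chr16:726394-726693, minus strand: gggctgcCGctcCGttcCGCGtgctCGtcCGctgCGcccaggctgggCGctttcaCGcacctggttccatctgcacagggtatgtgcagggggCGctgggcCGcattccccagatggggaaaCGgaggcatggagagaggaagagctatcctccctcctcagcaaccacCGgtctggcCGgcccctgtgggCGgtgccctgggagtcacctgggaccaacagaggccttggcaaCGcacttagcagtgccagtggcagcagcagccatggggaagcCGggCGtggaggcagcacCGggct
CTDSP1 promoter, chr2:218397983-218398282, plus strand: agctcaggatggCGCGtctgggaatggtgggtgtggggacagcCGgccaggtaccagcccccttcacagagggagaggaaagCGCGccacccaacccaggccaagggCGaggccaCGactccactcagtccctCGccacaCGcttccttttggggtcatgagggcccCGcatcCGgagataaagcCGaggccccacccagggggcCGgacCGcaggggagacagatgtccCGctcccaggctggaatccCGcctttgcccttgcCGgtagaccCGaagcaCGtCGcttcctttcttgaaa

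ADGRG1, an adhesion receptor of neural progenitors, had 8 CG dinucleotides in its window, LAMB3, a laminin subunit of epithelial basement membranes, had 3, and LPAR1, a receptor for lysophosphatidic acid, had 2. CCDC78, a centriole-related gene of ciliated cells, had 19, and CTDSP1, a phosphatase of the neuronal gene silencing machinery, had 20. The printed promoters thus range from CG-poor to CG-rich. Over the 60 start windows that overlapped a control-only region at any base, the median was 16 CG dinucleotides (quartiles 7 and 26), against 21 over all 22131 windows (quartiles 7 and 31). Over the 1488 windows that overlapped a region found in all 6 libraries it was 10, and over the 11 that overlapped a region found in the 3 knockdown lists alone it was 5. A run of 5 TG dinucleotides, searched on both strands because TDP-43 binds TG-rich nucleic acid, was in 0 of the 60 windows and in 1.03% of all windows. That 0 says only that these letters were not in those windows.

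At the ADGRG1 start, the fold enrichment given by the authors was 6.31, 5.62 and 6.00 in controls 1 to 3. At LAMB3 it was 7.55, 4.82 and 5.39, and at LPAR1 it was 10.0, 7.88 and 7.28. At these 3 starts each control was above its median fold over control-only regions. The nearest knockdown peak in any list lay 3291 bp from the ADGRG1 region, 6798 bp from that of LAMB3 and 1315 bp from that of LPAR1. CCDC78 had folds of 4.11, 3.42 and 3.58 and CTDSP1 of 5.87, 4.05 and 3.65, with the nearest knockdown peak 2153 bp and 551 bp away. With peaks up to 500 bp apart joined, the region at CTDSP1 was no longer control-only.

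Only 2 control-only regions overlapped a miRNA hairpin of the RefSeq table, 0.0506% of them, against 0.0797% of all merged regions. One was at MIR1246 on chromosome 2 (hairpin at 176600980 to 176601052), with folds of 3.16, 3.57 and 3.64 in controls 1 to 3. The other was at MIR152 on chromosome 17 (hairpin at 48037161 to 48037247), with folds of 3.29, 2.29 and 2.03. Their mature sequences share no seed, which is the stretch from base 2 to base 8 written in capitals.
hsa-miR-1246: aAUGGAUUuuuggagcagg
hsa-miR-152-3p: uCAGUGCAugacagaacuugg
hsa-miR-152-5p: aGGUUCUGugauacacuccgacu

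The 6 lists differed in size. Control lists held 117949, 157157 and 126966 peaks and knockdown lists 142605, 119820 and 130412. The depth in reads is unknown, as no label or header states it. At the regions found in all 6 libraries the median fold was 6.79 to 7.38 in controls and 6.83 to 7.14 in knockdowns, while the median −log10 q-value was 19.4, 36.3 and 21.2 in controls and 19.7, 14.7 and 18.4 in knockdowns. Control 2 thus had far smaller q-values at a like enrichment. Its part in the choice of the regions was not tested beyond the values without it, given below.

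Control-only regions were short and of modest enrichment. Their width had a median of 509 bp (quartiles 436 and 646, range 317 to 2162). That of the 14640 other regions with a peak in exactly 3 libraries was 506 bp, and that of the 71364 regions found in all 6 libraries, which join more peaks, was 969 bp. Their median fold was 4.23, 3.75 and 3.92 in controls 1 to 3, and their median −log10 q-value 8.34, 10.4 and 7.73. Within each control list they ranked at the 33.5th, 30.6th and 30.0th percentile of −log10 p at the median, against the 67.3rd to 74.9th for regions found in all 6 libraries. In all 3 lists at once, 315 of them, or 7.97%, ranked above the list's median.

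Regions just outside the rule were of 2 kinds. The 5775 regions with a peak in 3 controls and 1 knockdown had a median fold of 4.41, 4.13 and 4.16 in the controls, and the median −log10 q-value in the knockdown that had the peak was 6.61, 5.34 and 5.86 in knockdowns 1 to 3. The single knockdown was knockdown 1 in 2502 of them, knockdown 3 in 2115 and knockdown 2 in 1158. The 6932 regions with a peak in 2 controls and no knockdown had a median fold of 3.70, 3.74 and 3.86 where the controls had one. They ranked lower than control-only regions, at the 20.9th, 21.4th and 17.97th percentile at the median, with a median −log10 q-value of 6.09, 8.36 and 5.76. By the rule no knockdown peak overlapped a control-only region, so some distance was fixed in advance. The median distance from control-only regions to the nearest knockdown peak was 3537 bp. Of these regions 294 (7.44%) had one within 500 bp, and 907 had none within 10 kb.

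Regions can also be chosen on fewer libraries and looked up in those left out. Every list shaped the control-only regions described above, so this describes the new choices and is no independent support for those regions. Regions were merged and chosen again from 2 controls and 2 knockdowns, in each of the 9 ways of leaving out 1 library of each group, and the left-out lists were then searched. Between 6657 and 12069 regions were chosen each time. A left-out control had a peak in 54.5% to 80.6% of them and a left-out knockdown in 20.1% to 39.9%, with means of 67.1% and 29.6%. The left-out control was the higher in 9 of 9 choices, by 14.6 to 57.7 percentage points. Over all regions merged from the same 4 lists, left-out controls and knockdowns had a peak in 56.1% to 77.9% and 56.8% to 71.1%, so the ranges of the groups overlapped there. The 9 choices share libraries, so no p is given.

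**Figure D1:**
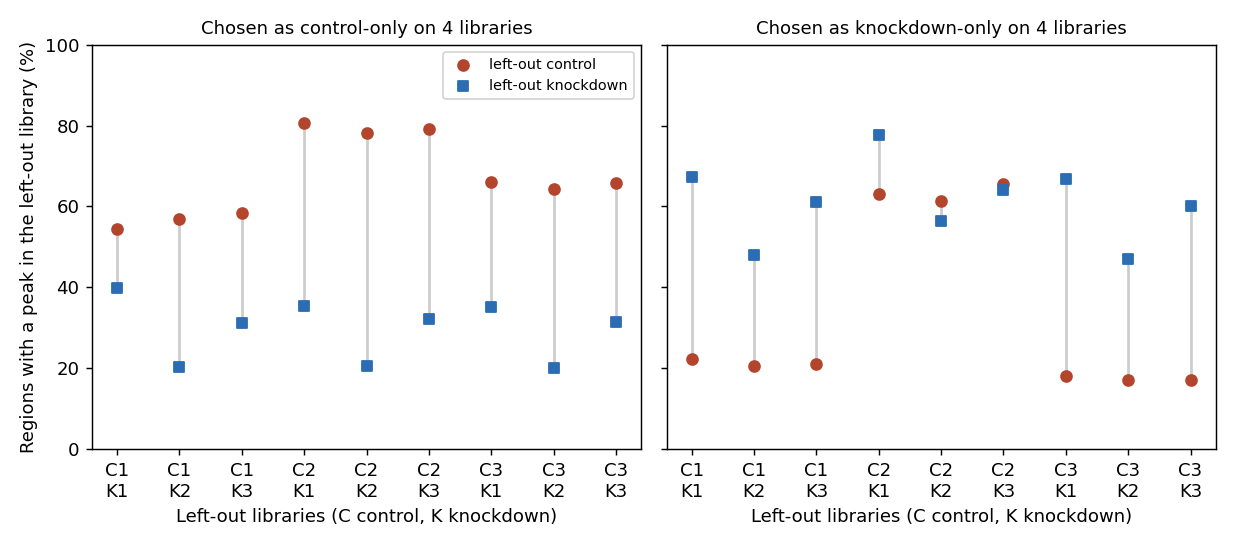
Percent of regions, chosen from 2 control and 2 knockdown lists, that had a peak in the left-out control (circles) or left-out knockdown (squares), for the 9 pairs of left-out libraries. In the left panel the circles lie at 54.5% to 80.6% and the squares at 20.1% to 39.9%. In the right panel, for knockdown-only regions, the circles lie at 61.3% to 65.5% where control 2 was left out and well below the squares where control 1 or 3 was.

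Each left-out library behaved alike across its 3 choices. Averaged over them, control 1 had a peak in 56.6% of control-only choices, control 2 in 79.3% and control 3 in 65.5%, while the knockdowns, in the same order, had one in 36.8%, 20.3% and 31.5%. The lowest control was therefore above the highest knockdown. Over any merged region the same controls had a peak in 56.8%, 77.1% and 61.4%, and the knockdowns in 69.6%, 57.8% and 63.5%. Left-out controls thus had a peak in the chosen regions about as often as in any region, control 1 slightly less often, and the left-out knockdowns had one less often than in any region. With the groups exchanged, the regions chosen as knockdown-only had a peak in the left-out knockdown in 47.0% to 77.7% and in the left-out control in up to 65.5%. There the groups overlapped, and control 2 had a peak in 63.3% of them on average, against 21.3% for control 1 and 17.4% for control 3.

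The number of control-only regions moved with single libraries. Asking for all controls and no knockdown among 5 lists is a looser rule by construction, and the number went to 7254 when control 1 was left out and to 6401 when control 3 was. Leaving out knockdown 1 gave 6477 and knockdown 3 gave 6077. Without control 2 there were 5291 control-only regions against 6810 knockdown-only ones, which turned the order of the full set (3951 against 2126, the latter 1.06% of merged regions).

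Control-only regions were more frequent where genes are dense. Gene density, a measure chosen after values were seen, is the number of protein-coding genes whose midpoint lies within 500 kb of a region's centre. Where this was 0 or 1, 388 of 34741 merged regions were control-only (1.12%). At 6 to 7 genes the share was 1.85%, at 13 to 17 genes it was 2.99%, and at 18 or more it reached 3.77% (693 of 18385). It was higher at each of the 8 levels of density than at the one before. The share of regions found in all 6 libraries was also higher at 18 or more genes (39.9%) than at 0 or 1 (28.9%), so a rise was not particular to control-only regions. The share of knockdown-only regions went the other way, from 1.16% at 0 or 1 genes to 0.761% at 18 or more. Among regions whose −log10 q was at least 5 in each of the 3 libraries, the shares from the sparsest to the densest step ran from 0.705% to 2.59% for control-only and from 0.665% to 0.354% for knockdown-only.

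**Figure D2:**
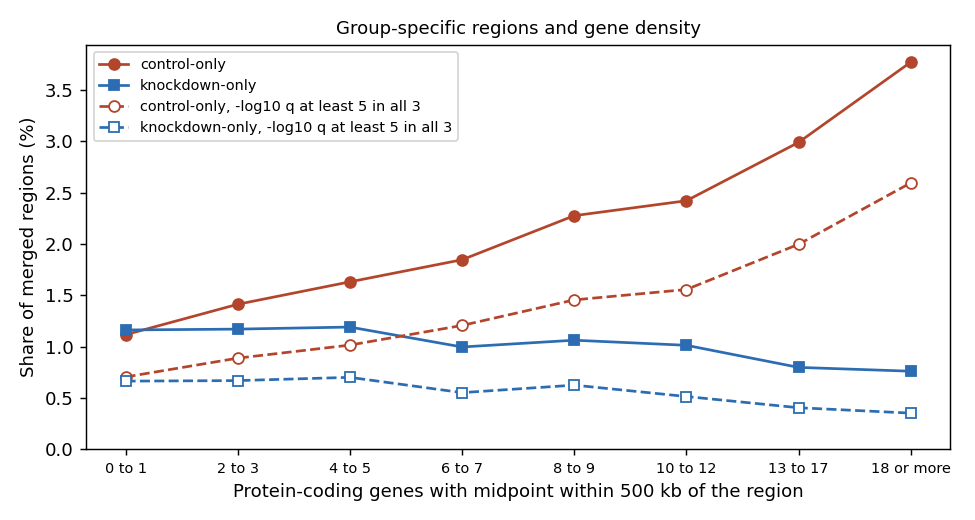
Share of merged regions that were control-only (circles) or knockdown-only (squares) by the number of protein-coding genes within 500 kb, with dashed lines for regions of −log10 q of at least 5 in all 3 libraries. The control-only line climbs from 1.12% to 3.77% and the knockdown-only line drifts from 1.16% to 0.761%.

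Nearness to gene starts followed the same order. Starts on chromosome 8 were not used here, which left 3746 control-only regions. Within 1 kb of a protein-coding start lay 253 of 3746 control-only regions (6.75%), against 1.19% of knockdown-only regions, 5.03% of regions found in all 6 libraries and 3.41% of other regions in 3 libraries. As in all merged regions, where 1574 of the 8080 within 1 kb overlapped the start, most were beside it. Of the 222 control-only regions beside a start, 142 lay upstream and 80 downstream, or 36.0% downstream, against 42.9% of such regions found in all 6 libraries. Regions over a start made up 0.828% of control-only and 0.823% of all merged regions. Density and nearness to starts were not the same thing, since among regions over 5 kb from any start the control-only share was still 3.63% at 18 or more genes and 1.07% at 0 or 1.

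The lists themselves differed in these features, and control 1 stood apart. Of its peaks 12.2% lay at 18 or more genes, against 8.76% and 10.1% in the other controls and 8.66%, 9.21% and 9.11% in the knockdowns. Within 1 kb of a start lay 5.39%, 4.10% and 4.57% of control peaks and 3.72%, 3.80% and 3.92% of knockdown peaks. For starts the groups did not overlap, while for density control 2 lay among the knockdowns. The part of this list-wide difference in the position of control-only regions was not tested. Without control 1, 5.07% of control-only regions lay within 1 kb of a start, against 1.72% of knockdown-only regions. The control-only share at 18 or more genes then exceeded that at 0 or 1 by 2.38 percentage points, against 2.65 with all libraries. Without control 3 it did so by 4.36 points, the highest value over single libraries left out.

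By chromosome, the control-only share of merged regions ran from 1.29% on chromosome 13 to 4.13% on chromosome 19. Chromosome 19, which is rich in genes, had 124 control-only regions among 3004. Chromosome 22 had 115 of 3121 (3.68%), chromosome X 89 of 2808 (3.17%), chromosome 21 62 of 2136 (2.90%), chromosome 17 200 of 7008 (2.85%) and chromosome 16 156 of 5513 (2.83%). The lowest shares after chromosome 13 were on chromosome 4 (1.33%), chromosome 3 (1.49%), chromosome 7 (1.55%) and chromosome 2 (1.60%). Chromosome X had a median of 5 genes within 500 kb of its regions and chromosome 21 of 6, against 28 on chromosome 19 and 12 on chromosome 22, so the order of chromosomes was not that of gene density alone. Knockdown-only shares lay in a narrower range, 0.702% to 1.31%, and were among the lowest on chromosome 19 (0.732%). The excess on chromosome 19 over all chromosomes was 2.16 percentage points, 1.61 without control 1, 3.78 without control 2 and 1.30 with equal numbers of peaks per list.

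**Figure D3:**
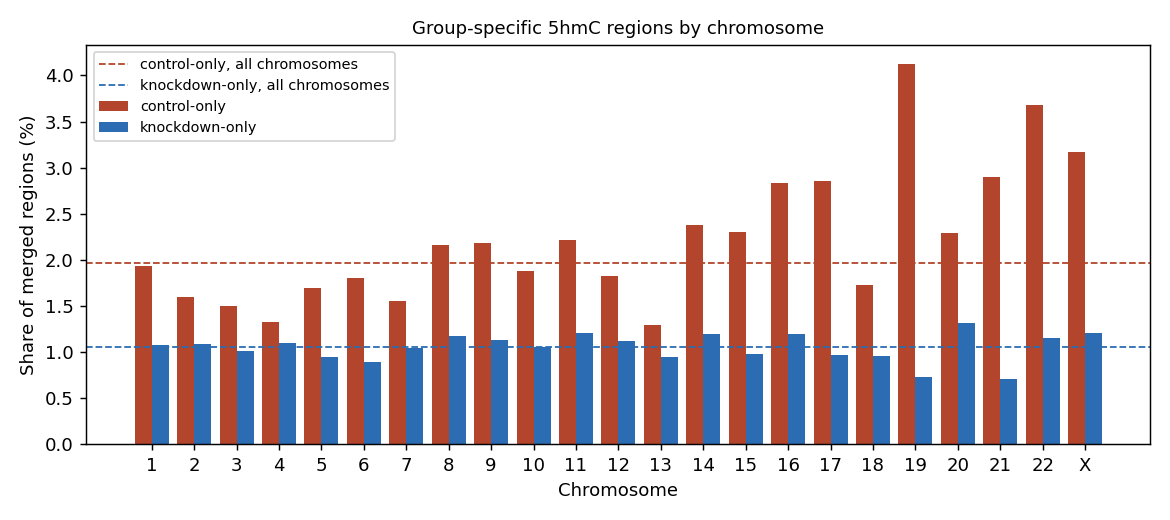
Share of merged regions that were control-only or knockdown-only on each of 23 chromosomes, with dashed lines at the shares over all chromosomes (1.97% and 1.06%). The control-only bar is tallest on chromosome 19, at 4.13%, and lowest on chromosome 13, at 1.29%.

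Control-only regions lay in gene bodies slightly less often than regions at large. Protein-coding genes held 2207 of them (55.9%), against 58.8% of all merged regions and 60.4% of regions found in all 6 libraries. The share was 57.1% for knockdown-only regions and 57.8% for other regions in 3 libraries. LncRNA genes outside protein-coding ones held 448 (11.3%, against 11.4% of all merged regions), and 1296 (32.8%, against 29.8%) lay in neither. Exons and introns were not analysed here.

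Shared 5hmC was farther from control-only than from knockdown-only regions. The distance between centres to the nearest region found in all 6 libraries had a median of 9278 bp for control-only regions (quartiles 3499 and 24699), 6124.5 bp for knockdown-only regions and 10110 bp for other regions in 3 libraries. Within 5 kb of a shared region lay 34.2% of control-only, 44.1% of knockdown-only and 32.3% of other 3-library regions, and within 50 kb 88.2%, 92.2% and 87.3%. By this measure control-only regions thus resembled other regions of the same number of libraries. The medians of control-only and knockdown-only regions were closest without control 2, at 8868 and 7932 bp.

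**Figure D4:**
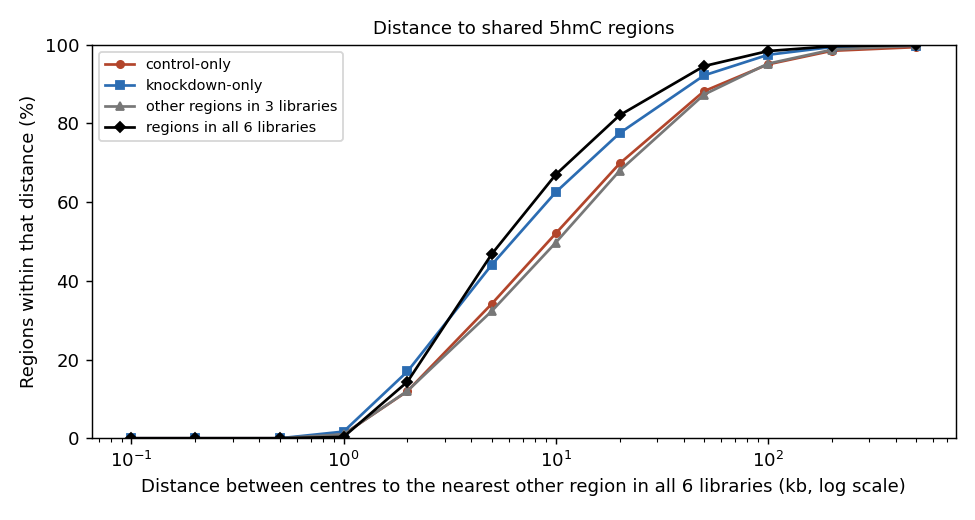
Cumulative percent of regions within a given distance (kb, log scale, centre to centre) of the nearest other region found in all 6 libraries. The control-only curve follows that of other regions in 3 libraries, while 44.1% of knockdown-only and 34.2% of control-only regions lie within 5 kb.

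Control-only regions were mostly solitary. Another one lay within 10 kb, centre to centre, for 319 of them (8.07%), and the same held for 7.67% of knockdown-only regions, which are fewer. At equal numbers of peaks per list the order turned (6.94% and 7.64%), as it did without control 2 (10.4% and 12.9%) and without knockdown 2 (9.62% and 11.0%). The next merged region in genome order was also control-only for 172 (4.35%), against a control-only share of 1.97% among all merged regions. For knockdown-only regions this held for 51 of 2126, against a share of 1.06%. In windows of 100 kb, 2825 held 1 control-only region, 430 held 2, 75 held 3, 9 held 4 and 1 held 5.

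The largest cluster had 4 control-only regions within 6730 bp of chromosome 9 (136599851 to 136606580), outside any annotated protein-coding or lncRNA gene and 52275 bp from EGFL7, a gene of endothelial cells. Its folds ran from 2.66 to 5.59 in control 1, 2.38 to 4.91 in control 2 and 2.26 to 4.18 in control 3, and no other merged region lay between its members. In ACSF3, a mitochondrial acyl-CoA synthetase gene, 3 members lay within 4867 bp (chromosome 16, 89140474 to 89145340), with folds up to 6.63, 4.94 and 5.28. In STAT3, a transcription factor of cytokine signalling, 3 lay within 6535 bp (chromosome 17, 42359061 to 42365595), with folds up to 4.30, 3.55 and 3.61 and a knockdown peak 729 bp away. EEIG1 held 3 within 6070 bp (chromosome 9, 127946794 to 127952863). A cluster of 3 on chromosome 2 (9770173 to 9776741) lay in the lncRNA gene LOC100996549, with a knockdown peak 299 bp away. Each of these 5 clusters was also an unbroken run, with no shared region inside it.

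Of 12958 protein-coding genes with any merged region, 1748 (13.5%) overlapped a control-only region and 928 (7.16%) a knockdown-only one. The 264 genes with both were 15.1% of the first and 28.4% of the second. Genes with a control-only region were long, with a median of 103535 bp against 40871 bp for all genes with regions, and had a median of 12 merged regions against 4. A gene with more merged regions has more occasions to hold a control-only one. Greater length therefore follows in part from the choice and is no finding about these genes. Most, 1386, had 1 control-only region, and 99 had 3 or more. In 127 of the 12958 genes every merged region was control-only, and all but 6 of these had a single merged region. In 21 genes every merged region was knockdown-only, a class with fewer regions.

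NRG1, which encodes a ligand of ERBB receptors, held the most, 13 of its 151 merged regions (chromosome 8, 31639245 to 32774046), with 1 knockdown-only and 40 shared by all libraries. They spread from 9.78% to 98.1% of its length. Peaks covered 4.10%, 8.70% and 5.93% of the gene in the control libraries and 5.07%, 3.64% and 4.03% in the knockdown libraries. The groups overlapped there, since control 1 lay below knockdown 1. The lead of NRG1 was lost at a −log10 q of at least 5, where it held 8 against 13 in PTPRN2, 10 in GSE1 and 9 in ARHGAP10. With equal numbers of peaks per list NRG1 and PTPRN2 held 8 each.

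GSE1, which encodes a partner of histone deacetylase complexes, held 10 of 168 regions (chromosome 16, 85169512 to 85676200) and no knockdown-only one. It was covered over 48.5%, 42.5% and 41.3% in controls and 37.1%, 34.3% and 36.3% in knockdowns. Its regions are packed closely, with 114 shared by all libraries, and it held 3 control-only regions when peaks up to 500 bp apart were joined and 6 with equal numbers of peaks per list.

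PTPRN2, a phosphatase-like protein of secretory granules, held 9 of 159 regions, with coverage of 11.3%, 10.1% and 9.51% in controls and 8.72%, 7.94% and 8.26% in knockdowns. SHANK2, a postsynaptic scaffold gene, held 7 of 95, with 9.48%, 8.33% and 7.56% against 7.06%, 6.18% and 7.05%. With equal numbers of peaks per list SHANK2 held 3. In these 2 genes and in GSE1 every control value was above every knockdown value, but the control-only regions that chose the genes are part of that coverage.

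PTPRE, a receptor-type tyrosine phosphatase gene, held 5 of 41 regions and no knockdown-only one. Its 5 members lay between 17.4% and 58.2% of its length, and the strongest of them (chromosome 10, 127959855 to 127960854) had folds of 4.40, 5.05 and 4.43. RBFOX3, which encodes the neuronal marker protein NeuN, also held 5 (of 57) and no knockdown-only one. Here all 5 lay between 5.05% and 17.7% of the gene's length from its lower coordinate. The strongest (chromosome 17, 79176306 to 79177093) had folds of 5.45, 5.43 and 5.74 and ranked above the 82nd percentile in each control list. The other 4 were much weaker, at folds of 2.44 to 4.15.

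LHFPL3 held 5 of 54, ARHGAP10 5 of 67, and PLXNA4, a semaphorin receptor gene of growing axons, 5, each with 1 knockdown-only region. GFRA2, which encodes the receptor of neurturin, held 4 of 11 regions (chromosome 8, 21690398 to 21812345), or 36.4%, against 1.87% over all protein-coding genes. This was the highest share among these 10 genes, but it is no finding, since genes with equal numbers were ordered by it. Other genes also held 4, such as ANKS1B with 4 of 35 regions. GFRA2 was covered over 5.95%, 4.41% and 4.34% in controls and 2.59%, 2.00% and 2.59% in knockdowns. The control-only regions that chose the gene are part of that coverage too. With equal numbers of peaks per list it held 1 control-only region. LHFPL3 and PLXNA4 held 3 each in that setting. Leaving out single libraries moved other counts by over 1.5 times. Without control 1 NRG1 held 22, LHFPL3 10 and ARHGAP10 8, and ARHGAP10 also held 8 without knockdown 1 or 3. RBFOX3 held 8 without control 3 or knockdown 2, and PLXNA4 8 without control 3.

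**Figure D5:**
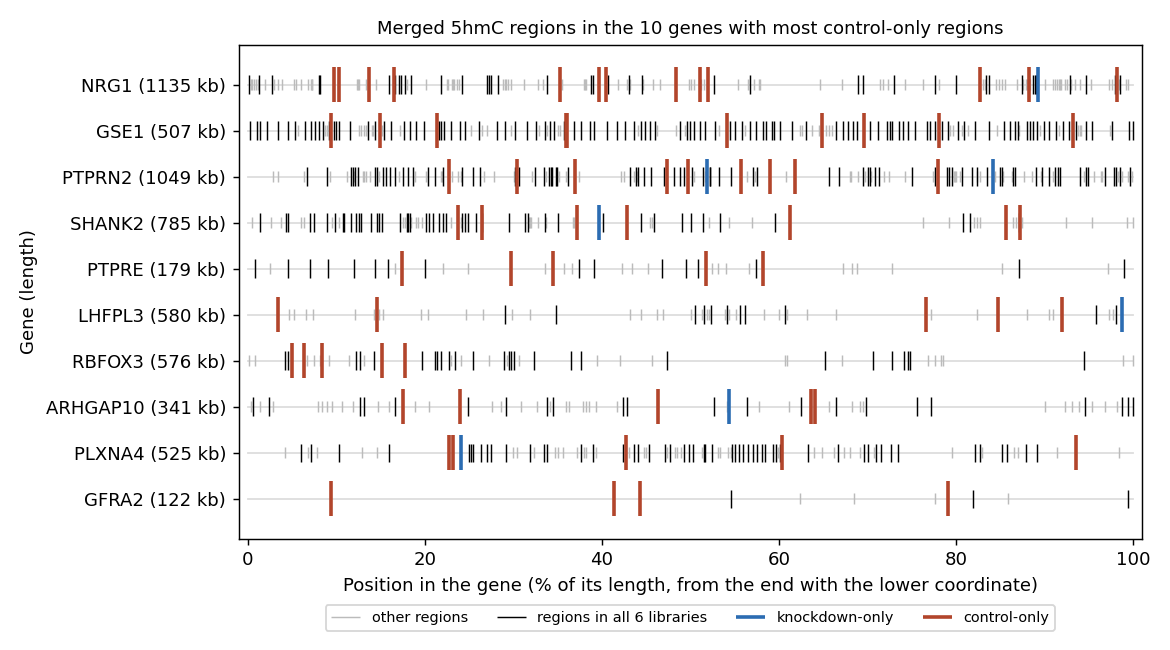
Position of merged regions in the 10 genes with most control-only regions, as percent of gene length from the lower coordinate. Tall red lines are control-only, tall blue lines knockdown-only, short black lines regions in all 6 libraries and short grey lines other regions. The 5 red lines of RBFOX3 lie between 5.05% and 17.7% of its length, while those of NRG1 spread along the gene.

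In 6 genes at least 2 regions were found and all were control-only. CLDN7, a tight junction gene (chromosome 17, 7259903 to 7263213), was covered over 23.4%, 22.4% and 23.7% in controls 1 to 3. AKIRIN1, a nuclear factor gene, was covered over 7.93%, 5.56% and 4.76%, and FHIP2B over 6.33%, 5.79% and 5.39%. ABCA7, a lipid transporter gene (chromosome 19, 1040107 to 1065572), had 3.00%, 3.29% and 3.46%, LYPD5 3.65%, 2.54% and 2.55%, and NIPSNAP1, a mitochondrial protein gene, 3.03%, 2.43% and 2.42%. Knockdown coverage was 0 in each of these genes by the way they were chosen.

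The strongest control-only regions were not in the genes with most of them, RBFOX3 excepted. The first by rank lay 4686 bp from ALDH3A1, an aldehyde dehydrogenase gene, outside genes (chromosome 17, 19752985 to 19754018), with folds of 11.5, 11.0 and 14.5 and ranks above the 93rd percentile in each control list. The second lay in C16orf74 (chromosome 16, 85723567 to 85724184), with folds of 10.2, 7.001 and 8.28. PHF19, a Polycomb accessory gene (chromosome 9, 120874766 to 120875778), had 7.82, 6.85 and 7.01, and DSCAM, a neuronal cell adhesion gene (chromosome 21, 40301383 to 40302064), had 10.8, 9.48 and 10.1. Each lay over 3 kb from the nearest knockdown peak, at 8243, 3152, 5431 and 6358 bp. FAM78B (chromosome 1, 166159817 to 166160376) had 10.1, 9.93 and 7.59. The others of the first 10 were at RBFOX3 and the ADGRG1 start and, outside protein-coding genes, 157572 bp from TMEM121, 59480 bp from ATF7IP2 and 357595 bp from SETBP1, the nearest gene of each.

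Among the 10 longest control-only regions, those of GRIN2A, ATG13 and PAX5 were followed by regions in EGFR, the epidermal growth factor receptor gene (chromosome 7, 55064430 to 55066135, 1706 bp), SH3PXD2B, a podosome scaffold gene (chromosome 5, 172436970 to 172438665, 1696 bp), IGF1R, the receptor gene of insulin-like growth factor (chromosome 15, 98682543 to 98684221, 1679 bp), and RUNX1, a transcription factor gene (chromosome 21, 35046864 to 35048516, 1653 bp). Folds were 3.94, 3.92 and 5.46 at EGFR, 5.03, 4.67 and 6.58 at IGF1R and 8.19, 6.78 and 5.49 at RUNX1. SH3PXD2B had 2.96, 1.80 and 2.05. Its folds in controls 2 and 3 were close to the lowest of control-only regions there, 1.63 and 1.70. The SH3PXD2B region was lost at a −log10 q of at least 5, as was the region in RASA3, a Ras GTPase-activating gene (chromosome 13, 114003780 to 114005378). The region of RUNX1 lay 141520 bp from any knockdown peak, whereas that of SH3PXD2B had one 632 bp away. With equal numbers of peaks per list the regions of SH3PXD2B, RASA3 and GRIN2A were lost, and without control 2 that of ATG13. SLC28A2 and USP10 were the genes nearest to the remaining 2, which lay outside protein-coding genes.

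Gene lists of pathways and cell types were read as the control-only share of the merged regions in their genes, beside 1.87% for all protein-coding genes. The knockdown-only share over all protein-coding genes was 1.03%, so a short list can hold none at that share. Myelin and Schwann cell genes had 5 of 49 regions control-only (10.2%) and none knockdown-only. Of these, 4 were in MBP, the myelin basic protein gene, and 1 in PMP22, so 2 of 8 genes with regions carried them. Autophagy and lysosome genes had 10 of 202 (4.95%) in 7 of 28 genes, with 4 in ATG7, the activating enzyme of autophagy conjugation, and 1 each in ATG13, ATG9B and ATG16L2. Retinoic acid genes had 7 of 199 (3.52%) in 3 of 13 genes, RARB with 3 and STRA6 and RXRA with 2 each, and no knockdown-only region.

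Mesenchymal neuroblastoma genes had 6 of 178 (3.37%), among them 2 in RUNX1 and 1 each in MEOX1, IRF2 and WWTR1. Methylcytosine enzyme and reader genes had 3 of 105 (2.86%), 1 each in DNMT3A and DNMT3B, which methylate DNA, and in TET2, which oxidises 5-methylcytosine. Reported targets of TDP-43 in splicing had 6 of 236 (2.54%) in 5 of 14 genes, with 2 in SYT7 and 1 each in INSR, PFKP and STMN2, and none knockdown-only. Lymphocyte genes had 4 of 160 (2.50%), with 2 in PAX5 and 1 each in CD37 and EBF1. Noradrenergic genes had 2 of 86 (2.33%), 1 each in SLC6A2, the noradrenaline transporter gene, and DDC, against 4 knockdown-only regions.

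Other lists lay near or below the share of all genes. Wnt pathway genes had 5 of 236 (2.12%), with 2 in TCF7, and splicing factor genes 14 of 665 (2.11%), of which RBFOX3 had 5, RBFOX1 4, CELF2 3 and SRSF4 1. Voltage-gated calcium and sodium channel genes had 6 of 305 (1.97%), 3 of them in CACNA1C, and glutamate receptor genes 13 of 683 (1.90%), with 3 in GRIA1. Potassium channel genes had 8 of 597 (1.34%), 3 of them in KCNT1, against 18 knockdown-only. Genes of BMP, TGF-beta and activin signalling had 5 of 412 (1.21%), with 2 in SMAD6, against 15 knockdown-only, and axon guidance genes 19 of 1805 (1.05%), with 5 in PLXNA4 and 2 in EFNA3. HOX genes had 0 of 15. Knockdown-only regions numbered 2 in autophagy and lysosome genes, 3 in mesenchymal, 1 in methylcytosine, 3 in lymphocyte and 4 in Wnt pathway genes. Splicing factor genes had 3, calcium and sodium channel genes 4, glutamate receptor genes 12, axon guidance genes 23 and HOX genes 0. The lists were not tested.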

How the data were processed

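5hmC was profiled in 3 control and 3 TDP-43 knockdown libraries of SH-SY5Y. The submitters' processing notes name hg38, MACS2 2.2.6, SAMtools and Bowtie2 2.4.4 without saying which step used which. Use of an input as background for the peak caller is not stated. The authors deposited 1 peak list per library, with no pooling. For each peak it gives a deposited score, a fold enrichment (a ratio over the caller's background) and −log10 p- and q-values, all the authors' own, which here only describe peaks or order them inside their list. The deposited score equalled 10 times the −log10 q-value within 1 and was not used. The summit offset is also deposited and was not used.

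Peaks on 23 chromosomes were merged and classified with Python 3.11.15, numpy 2.4.6 and pandas 2.3.3. A region's fold, q-value and percentile in a library are each the highest among its peaks there. Distances are centre to centre, except to knockdown peaks and starts, which are edge to edge. Intervals of 95% (exact binomial, scipy 1.17.1) served only to judge alternatives. Gene positions came from RefSeq tables of GRCh38.p14, the build of the files. Overlapping genes each count a region. The code was tested on simulated lists with known regions. Regions named are the 10 longest, the 10 strongest, the 5 strongest over a start, the 5 largest clusters and, per gene list, up to 4 genes. Genes named are the 10 with most control-only regions and those with at least 2 and no other region. Ties among the former went to the gene with the higher share of control-only regions. Regions farthest from shared 5hmC are in the closing section. Members and lists were chosen with earlier results of these data known. Alternatives were a stricter peak threshold, equal numbers of peaks, wider joining, a distance rule, other distance and gene assignments, and leaving out each library.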

Additional observations from a re-analysis of the deposited data

How the results depend on the processing

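No paired analysis was possible because the results come from no test. With 5 libraries in place of 6, the number of control-only regions was 5115 to 7254, the median distance to shared regions 8113 to 9437.5 bp, the percent with another within 10 kb 9.62 to 11.6, the percent within 1 kb of a start 5.07 to 7.47, the percent in protein-coding genes 55.2 to 56.9, the excess at 18 or more genes over 0 or 1 2.38 to 4.36 points and the excess on chromosome 19 1.61 to 3.78 points. The rule is looser by construction there. The alternatives for starts, density and chromosome 19 were chosen after seeing the data.

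At a −log10 q of at least 5 the median distance was 9972 bp, 9.99% had another within 10 kb, 7.66% lay within 1 kb of a start and the density excess was 3.67 points. With equal numbers of peaks these were 9922 bp, 6.94%, 6.21% and 1.94 points, with 1.30 points on chromosome 19. With peaks up to 500 bp apart joined the distance was 10458 bp and 7.22% had another within 10 kb, and with no knockdown peak allowed within 500 bp the distance was 10133 bp. Edge to edge it was 8451 bp. Within 50 kb 29.1% had another, and 4.35% were followed by one. Except for these definitions, the cause of each move was not tested.

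In these 4 settings of peaks and joining the number was 3301 to 4423, and the left-out control exceeded the left-out knockdown in 9 of 9 choices each. The percent in protein-coding genes was below that of all regions in 12 of 12 settings, and the distance to shared regions above that of knockdown-only regions in 12 of 12. Of 100 counts in the 10 named genes under alternatives, 83 stayed within 1.5 times. Depth is not known, so a region absent from a list may be one that its depth could not call.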

Other observations

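The 5 control-only regions farthest from any region shared by all libraries lay on chromosomes X, 22 and 14. One in the lncRNA gene LINC01278 on chromosome X (63434602 to 63435001) was 4976890 bp away, with folds of 2.94, 2.71 and 2.73 in controls 1 to 3. A pair on chromosome 22 (12199797 to 12200322 and 12601173 to 12601900) was 4919958 and 4518481 bp away, in a stretch without protein-coding genes within 500 kb. Folds there were 5.32, 3.80 and 6.47 for the first and 3.43, 2.85 and 2.17 for the second, and a knockdown peak lay 710 bp from the first. One in FRMPD3 on chromosome X (107547396 to 107548116) had folds of 6.70, 4.78 and 3.25 and no knockdown peak within 2150634 bp, the longest such distance of any control-only region. The fifth, on chromosome 14 (38994766 to 38995846), had folds of 6.03, 5.39 and 5.20 and a knockdown peak 2040 bp away. Large distances do not mean strong peaks here, since the LINC01278 region ranked at the 7.05th percentile or lower in every control list.

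By distance from any knockdown peak, a measure added after the values were seen, the next after FRMPD3 was a region in the lncRNA gene LINC01785 on chromosome 19 (22623747 to 22624253, 492121 bp), with folds of 4.62, 4.72 and 4.29. The third was in ODAM, a gene of tooth enamel formation, on chromosome 4 (70197626 to 70198421, 488909 bp), with folds of 6.89, 13.1 and 12.5. Controls 2 and 3 were high at ODAM and control 1 lower. CALN1, a neuronal calcium-binding gene on chromosome 7 (72099353 to 72100188), followed at 435784 bp, with folds of 3.14, 3.37 and 4.33.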
